A study of Mus musculus with 31 samples.

Results

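The SLC25 carriers are the largest family of transport proteins in the inner mitochondrial membrane. All 47 protein-coding mouse genes whose symbol is Slc25a followed by a number alone were taken from the GENCODE vM21 annotation, and 47 of 47 were present in both count tables, among 35275 gene identifiers in the table of insulin-treated livers and 54532 in the table of ERRα3SA tissues. By the substrate known for each, they comprised 4 ADP/ATP and phosphate carriers, 4 ATP-Mg/phosphate carriers, 4 di- and tricarboxylate carriers, 4 aspartate and glutamate carriers, 5 other amino acid carriers, 1 acylcarnitine carrier, 7 cofactor carriers, 2 pyrimidine nucleotide carriers, 4 iron and glutathione carriers, 3 uncoupling-protein-like carriers, 1 member of the outer membrane and 8 genes without an assigned substrate. Ucp1, Ucp2, Ucp3, Mtch1 and Mtch2 belong to the same family under other symbols and were kept apart as companion genes.

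RNA sequencing was performed on liver and skeletal muscle of mice on the C57BL/6N background, kept on a standard normal diet, to ask which genes insulin and the nuclear receptor ERRα (gene Esrra) control. In the insulin experiment, WT mice and ERRα-/- mice, which lack ERRα, received saline or insulin (1 unit/kg) by intraperitoneal injection after a fast of 12 h, giving 4 WT saline livers, 4 WT insulin livers, 4 ERRα-/- saline livers and 3 ERRα-/- insulin livers, numbered 1, 2 and 4. Tissues were taken 4 h after the injection. The other experiment used mice with a CRISPR knock-in, ERRα3SA, in which serines that are phosphorylated in ERRα are replaced by alanine, and their WT littermates, without a treatment on the label, with 4 livers and 4 muscles of each genotype. Muscle was taken from gastrocnemius and soleus. As a general rule that allows exceptions, the study's methods name males aged 2 to 3 months, compared with littermates of matching age. The methods of the study count individual mice as replicates in animal experiments, so p-values were read as measuring the spread between animals of a group.

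Mitochondria are enclosed by an inner membrane that is closed to most charged metabolites, and the SLC25 proteins carry nucleotides, phosphate, carboxylates, amino acids, acylcarnitine, cofactors and metal ions across it. In the liver they connect mitochondria with the urea cycle, gluconeogenesis and lipid synthesis, whereas in muscle the exchange of ADP for ATP and the uptake of phosphate supply contraction. ERRα is a transcription factor that binds the promoters of many genes of mitochondrial energy metabolism.

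Between 35871419 and 48317108 reads per sample were assigned to genes in the insulin table, and between 20481405 and 33412022 in the ERRα3SA table. Levels are given as CPM, the counts in a library scaled to a common total and by the trimmed mean of M values (TMM) within each table, and levels of different carriers were compared only as CPM per kb of transcript, while marker genes are named by plain CPM. The tables came from separate experiments, so tests were made within a table.

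The targeted gene was checked first. Esrra (ENSMUSG00000024955) stood at 32.3, 51.3, 42.7 and 40.5 CPM in the WT saline livers, at 53.7, 96.4, 56.1 and 59 in the WT insulin livers, at 1.63, 0.703, 1.15 and 1.04 in the ERRα-/- saline livers and at 0.833, 0.576 and 0.298 in the ERRα-/- insulin livers. All 7 knockout libraries lay far below all 8 WT libraries, as their labels state. In the other table, Esrra stood at 27.7, 27.1, 28.2 and 29.4 CPM in WT littermate livers, at 29.4, 25.4, 21.1 and 19.2 in ERRα3SA livers, at 90.2, 82.6, 66.9 and 78 in WT littermate muscles and at 24.3, 133, 127 and 94.5 in ERRα3SA muscles. A change of amino acids leaves the transcript in place, so these values do not check the ERRα3SA label, and the low muscle value belongs to replicate 1.

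Tissue markers matched the labels. A list of 6 hepatocyte genes summed to between 59943 and 113013 CPM in the liver libraries and to between 8.09 and 18.6 in the muscle libraries, where Cyp2e1 had the highest CPM and between 1 and 4 of the 6 genes were at 0. A list of 6 skeletal muscle fibre genes summed to between 80129 and 179178 CPM in muscle, with Myh4 at the highest CPM, and to between 0 and 105 in liver.

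Some libraries stood apart from the rest of their group. ERRα3SA muscle replicate 1 held the Esrra value of 24.3 CPM, had 19.3% of its counts on genes of the mitochondrial genome against 9.15% to 9.85% in the other ERRα3SA muscles, and summed to 137273 CPM over 4 fast fibre genes against 46799 to 67458. It also summed to 4049 CPM over 6 slow fibre genes against 1806 to 2621, and to 282 CPM over 4 endothelial genes against 198 to 215. WT insulin liver replicate 2 had 1.88% of its counts on the mitochondrial genome against 3.88% to 4.17% in the other WT insulin livers, and the highest Esrra value. ERRα3SA liver replicate 4 summed to 59943 CPM over the 6 hepatocyte genes, with Alb at 39808, against 93245 to 106412 in the other ERRα3SA livers. WT insulin liver replicate 3 summed to 105 CPM over the 6 muscle fibre genes, none of them at 0 and Myh1 with the highest CPM at 31.9, against 0.237 to 3.45 in the other WT insulin livers. ERRα3SA muscle replicate 4 summed to 57.5 CPM over 5 macrophage genes, 1 of them at 0 and Csf1r with the highest CPM at 39.9, against 22.5 to 27.5 in the other ERRα3SA muscles, and to 156 CPM over 5 erythroid genes against 77.4 to 104. Over 3 T or B cell genes, with Ptprc highest at 14.7, the same library summed to 15.3 CPM against 3.46 to 4.78. Results that rest on these libraries are given with and without them.

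Between 39 and 40 of the 47 carriers reached a mean of 1 CPM in each group, and between 25 and 30 reached 10 CPM. Slc25a54 had no count in any library, and Slc25a41 had none in any liver. The testis-type ADP/ATP carrier Slc25a31 stayed at or below 0.235 CPM in every sample of both tissues. Slc25a2, a second ornithine carrier gene, and Slc25a43 were also too low to test in most comparisons.

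The order of the carriers differed between tissues and between the livers of both experiments. In WT littermate muscle the ADP/ATP carrier Slc25a4 had the highest level, 1449.9 CPM per kb, followed by the phosphate carrier Slc25a3 at 447, the oxoglutarate carrier Slc25a11 at 121 and the aspartate/glutamate carrier Slc25a12 (aralar) at 76. In WT littermate liver the ADP/ATP carrier Slc25a5 led at 324 CPM per kb, followed by the glutathione carrier Slc25a39 at 233, Slc25a3 at 219, the liver carrier Slc25a47 at 207, the citrate carrier Slc25a1 at 187 and the ornithine carrier Slc25a15 at 155. The fasted WT livers of the insulin experiment had another order, with Slc25a47 first at 392 CPM per kb after saline and 859 after insulin. ADP/ATP and phosphate carriers made up 80.9% of the summed level per kb of all 47 genes in WT littermate muscle and 25.9% in WT littermate liver. Their share in ERRα3SA tissues was 83.4% in muscle and 25.7% in liver.

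**Figure D1:**
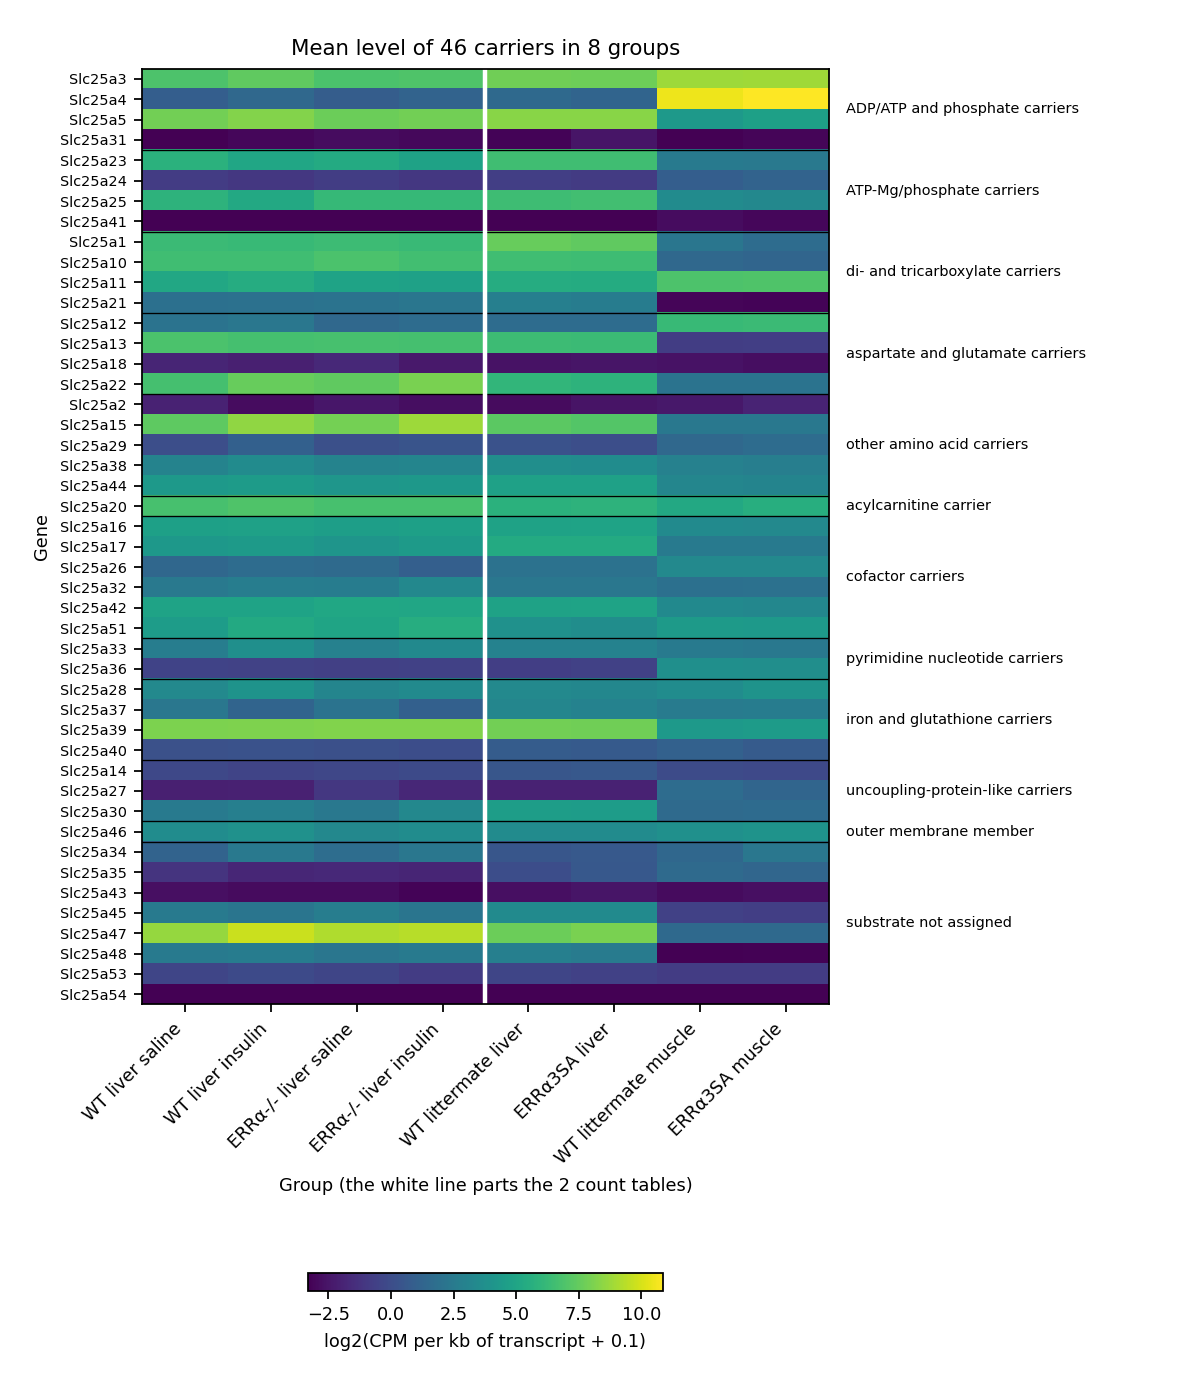
Heat map of the mean level of 46 of the 47 carriers (one line per gene, grouped by substrate) in each of 8 groups, as log2 of CPM per kb of transcript plus 0.1. Slc25a4 is the brightest gene in muscle, at 1449.9 CPM per kb in WT littermates, and Slc25a47 in the fasted livers, at 859 after insulin in WT.

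Promoters were described for the carriers, with sequences for both abundant ADP/ATP carriers. RefSeq promoters of the GRCm38.p6 assembly, 300 bases long with 250 before and 50 after the start of transcription, were found for 36 of the 47 carriers, 46 promoters in all, and 11 carriers had no entry. They were searched on both strands for TNAAGGTCA, the 9-letter element bound by ERRα, where N is any base. It occurred in 0 of the 46 carrier promoters and in 421 of 32851 promoters of all genes (1.28%). The 7-letter core AAGGTCA, which every TNAAGGTCA contains, was then added after that result was seen and occurred in 1 of 46 carrier promoters (2.17%) and in 1550 of all promoters (4.72%). That match lay in the promoter of Slc25a34, a carrier without an assigned substrate, at chr4:141623785-141624084 on the minus strand, 119 bases before the start. There AAGGTCA lay on the strand opposite to the printed sequence, which reads TGACCTT at the match. The promoters of Slc25a4 (chr8:46211013-46211312, minus strand) and Slc25a5 (chrX:36795347-36795646, plus strand) held neither set of letters in this window. Their GC content was 65.7% and 61%, against a median of 52.7% over all promoters. The choice of the sequences was made after the values were seen, and capitals mark the match.
Slc25a34: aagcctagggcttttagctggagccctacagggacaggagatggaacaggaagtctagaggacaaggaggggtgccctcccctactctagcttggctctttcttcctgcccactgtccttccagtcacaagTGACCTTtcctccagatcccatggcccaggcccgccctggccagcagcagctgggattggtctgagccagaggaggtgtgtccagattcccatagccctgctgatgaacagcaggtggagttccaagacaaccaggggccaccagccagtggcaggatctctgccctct
Slc25a4: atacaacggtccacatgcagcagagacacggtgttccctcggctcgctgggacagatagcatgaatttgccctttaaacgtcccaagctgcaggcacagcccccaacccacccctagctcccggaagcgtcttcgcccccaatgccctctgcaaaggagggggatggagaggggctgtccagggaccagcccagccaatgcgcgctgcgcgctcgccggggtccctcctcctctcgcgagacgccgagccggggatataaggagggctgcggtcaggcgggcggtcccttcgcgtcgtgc
Slc25a5: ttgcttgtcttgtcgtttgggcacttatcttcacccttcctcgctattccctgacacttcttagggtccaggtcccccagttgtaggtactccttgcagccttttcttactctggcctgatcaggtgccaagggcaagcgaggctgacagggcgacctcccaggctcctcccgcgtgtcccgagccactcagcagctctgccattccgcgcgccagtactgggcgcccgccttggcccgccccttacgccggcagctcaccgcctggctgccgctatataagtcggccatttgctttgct

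Muscle was first compared with liver in the WT littermates, to see which carriers each tissue uses. Muscle held more of the ADP/ATP carrier Slc25a4 and the aspartate/glutamate carrier aralar, and liver more of Slc25a5 and citrin, which carry the same substrates. The ornithine carrier of the urea cycle and the citrate carrier were lower in muscle. The phosphate and oxoglutarate carriers were higher in muscle, and the acylcarnitine carrier differed by less than a fold of 2.

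A carrier was called between tissues when its adjusted p was below 0.05 in the quasi-likelihood test of edgeR after Benjamini-Hochberg adjustment and its fold was at least 2. Of 41 carriers tested, 12 were called higher in muscle (29.3%) and 18 lower (43.9%), beside 29.3% and 28.8% of all genes tested, so the higher share equalled the background. The median log2 fold change was -0.56 over the carriers and 0.00146 over all genes.

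Slc25a4 (ENSMUSG00000031633), which exchanges cytosolic ADP for mitochondrial ATP, stood at 2778, 3005, 2651 and 2730.5 CPM in the 4 muscles and at 5.93, 5.07, 4.41 and 5.8 CPM in the 4 livers. It was 536-fold higher in muscle, a log2 fold change of 9.07 ± 0.14 (SE), with an adjusted p of 4.93e-16 in the quasi-likelihood test of edgeR after Benjamini-Hochberg adjustment. Every muscle lay above every liver. Slc25a5 (ENSMUSG00000016319), the ADP/ATP carrier of most other tissues, ran the other way, with 26.3, 28.8, 23.6 and 22.1 CPM in muscle and 423, 396, 400.2 and 387 CPM in liver. It was 15.6-fold lower in muscle, at a log2 fold change of -3.96 ± 0.09, and no samples overlapped. Slc25a5 has processed pseudogene copies in the genome, so its counts may have been split or enlarged by them. The testis-type gene, Slc25a31, stood at 0, 0, 0 and 0 CPM in muscle and at 0, 0.0792, 0 and 0 in liver, which is 2 counts in 1 liver. Slc25a3, which brings in the phosphate for ATP synthesis, had 724, 773, 681 and 704 CPM in muscle and 359, 347, 346 and 359.8 in liver. Its 2.09-fold difference was among the smallest of the carriers called.

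Aspartate/glutamate carriers changed places as well. Slc25a12 (aralar, ENSMUSG00000027010), part of the malate-aspartate shuttle, stood at 451, 509, 477 and 494 CPM in muscle and at 18.1, 17.5, 21.2 and 23.1 CPM in liver. It was 24.8-fold higher in muscle, with a log2 fold change of 4.63 ± 0.10. Slc25a13 (citrin, ENSMUSG00000015112), which does the same work and feeds aspartate to the urea cycle, stood at 1.16, 1.82, 0.909 and 2.29 CPM in muscle and at 269, 281, 269.6 and 244 CPM in liver. It was 169-fold lower in muscle, with a log2 fold change of -7.40 ± 0.17. Neither gene had overlapping tissues. The glutamate carrier Slc25a22 was also lower in muscle, at a log2 fold change of -3.93.

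Among pyrimidine nucleotide carriers, Slc25a36 (ENSMUSG00000032449) stood at 72.2, 71.2, 69.5 and 68 CPM in muscle and at 2.78, 3.29, 2.83 and 2.19 CPM in liver. It was 25.8-fold higher in muscle, with a log2 fold change of 4.69 ± 0.10 and no overlap. The related Slc25a33 had a log2 fold change of -0.48 and was not called. Slc25a36, Slc25a12 and Slc25a4 were the largest called increases among carriers of at least 10 CPM.

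Slc25a21 (ENSMUSG00000035472), which carries oxoadipate in lysine breakdown, stood at 18.1, 15.5, 19 and 18.3 CPM in liver and at 0.0703, 0.079, 0 and 0 CPM in muscle. Against a floor of 3 counts, 0.113 CPM, it was at least 157-fold lower in muscle. Slc25a48 (ENSMUSG00000021509), without an assigned substrate, stood at 24, 26.5, 23.4 and 19.7 CPM in liver and at 0, 0.0395, 0 and 0 CPM in muscle, at least 207-fold lower. No WT littermate muscle held more than 2 counts of either gene. Of the 4 di- and tricarboxylate carriers, 3 were called lower in muscle and 1 higher, beside 28.8% and 29.3% of all genes. Slc25a1 had a log2 fold change of -5.31 and Slc25a10 of -5.07, while Slc25a11 was 2.84-fold higher. Slc25a15, the ornithine carrier of the urea cycle, was 30.3-fold lower, Slc25a47 was 72.9-fold lower and Slc25a39 was 11.4-fold lower.

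Of the 7 cofactor carriers, 2 were called higher and 3 lower, beside 29.3% and 28.8% of all genes, so the higher share was near the background. The S-adenosylmethionine carrier Slc25a26 was higher in muscle at a log2 fold change of 1.42, whereas the peroxisomal carrier Slc25a17 was lower at -2.85. Iron carriers differed little, with Slc25a28 (mitoferrin 2) at a log2 fold change of 0.25 and Slc25a37 (mitoferrin 1) at -0.61. The acylcarnitine carrier Slc25a20 had a log2 fold change of -0.50. Among companion genes, 14 of 55 tested were called higher and 21 lower, beside 29.3% and 28.8% of all genes, so the higher share was near the background. The carnitine palmitoyltransferase genes Cpt1b and Cpt1a had log2 fold changes of 3.32 and -5.08.

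**Figure D2:**
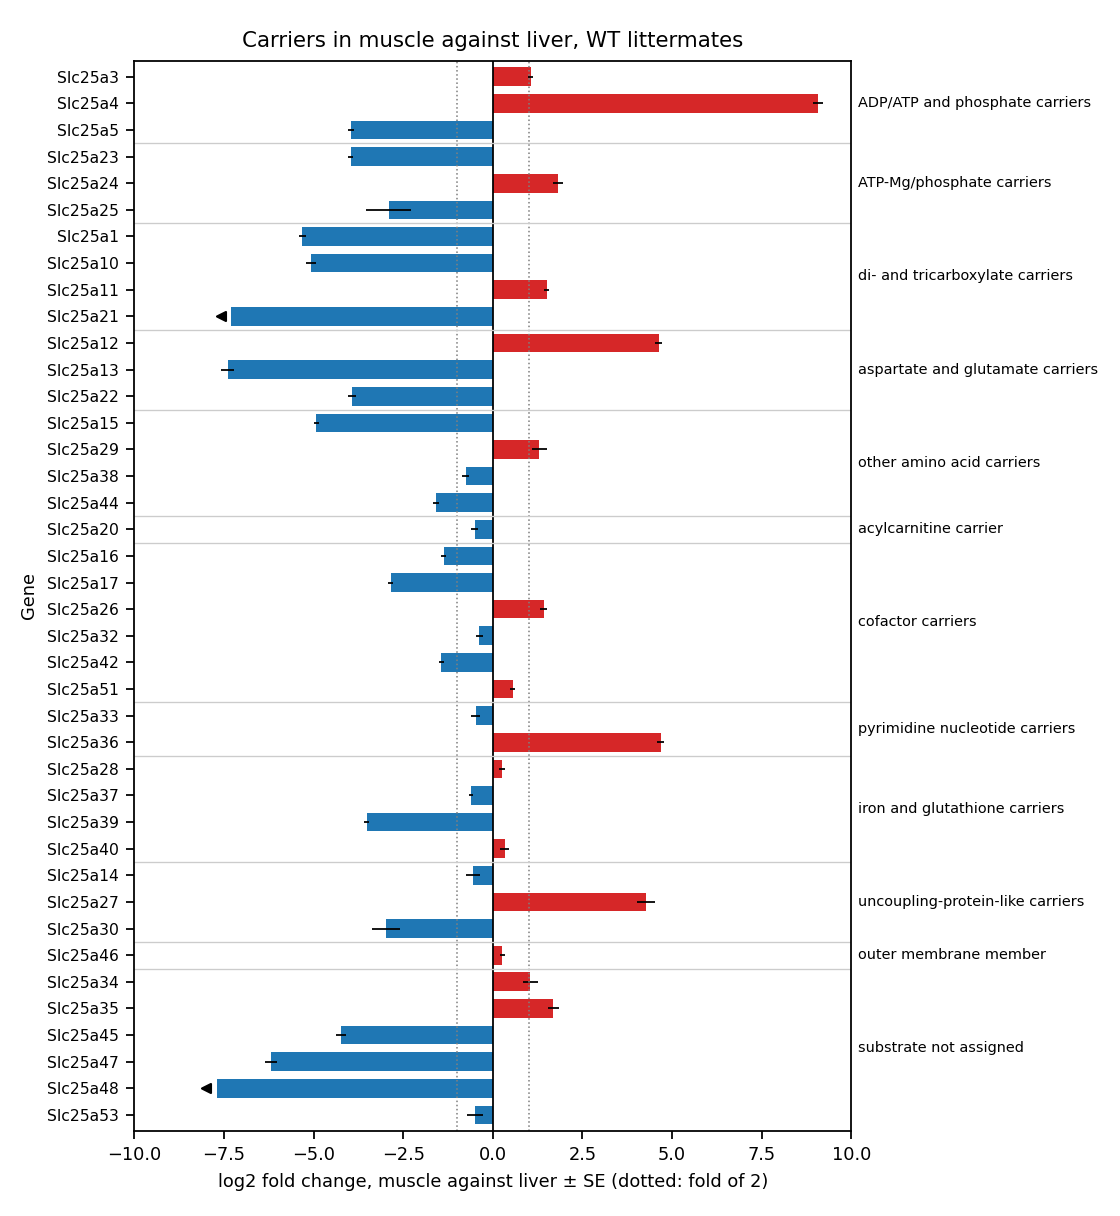
Log2 fold change of tested carriers in WT littermate muscle against liver (bars, red higher and blue lower in muscle, with SE as error bars), grouped by substrate, with dotted lines at a fold of 2. Slc25a4 reaches 9.07, and arrowheads mark Slc25a21 and Slc25a48, whose bars stand at the bounds of 157-fold and 207-fold.

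Insulin was then compared with saline in the livers of fasted WT mice, to see which carriers respond to the hormone. The ornithine carrier Slc25a15, the glutamate carrier Slc25a22, the pyrimidine nucleotide carrier Slc25a33 and Slc25a47 rose, and mitoferrin 1 fell. The phosphate carrier and the NAD carrier rose by less. No di- or tricarboxylate carrier was called.

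In all comparisons other than muscle against liver, a carrier was called when its unadjusted p by edgeR's quasi-likelihood test was under 0.05 and its fold at least 1.2. Of 42 carriers tested in WT livers, 12 were called higher with insulin (28.6%) and 2 lower (4.76%), beside 8.34% and 8.91% of all genes. With Benjamini-Hochberg adjustment over all genes in the same edgeR test, 9 of the 42 had an adjusted p under 0.05, beside 3.16% of all genes. On the log2 scale the median fold change was 0.17 over the carriers and 0.00362 over all genes.

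Slc25a15 (ENSMUSG00000031482), which exchanges ornithine for citrulline in the urea cycle, stood at 514, 693, 491 and 516 CPM in WT saline livers, at 1364, 1560.4, 1011 and 1054 in WT insulin livers, at 944, 694, 1021 and 584 in ERRα-/- saline livers and at 1454, 1670.3 and 1454 in ERRα-/- insulin livers. In WT, it was 2.25-fold higher with insulin, at a log2 fold change of 1.17 ± 0.18 and an adjusted p of 0.00718 in the quasi-likelihood test of edgeR after Benjamini-Hochberg adjustment. In both genotypes every insulin liver lay above every saline liver. Slc25a22 (ENSMUSG00000019082), which carries glutamate into the matrix, stood at 303, 308, 283 and 249.7 CPM in WT saline livers, at 503, 569.9, 506 and 548 in WT insulin livers, at 502, 413, 621 and 388 in ERRα-/- saline livers and at 623, 793 and 717 in ERRα-/- insulin livers. Its log2 fold change in WT was 0.90 ± 0.12, with an adjusted p of 0.00334 in that edgeR test after Benjamini-Hochberg adjustment. The ERRα-/- saline livers lay above the WT saline livers and around the WT insulin livers.

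Slc25a33 (ENSMUSG00000028982), a pyrimidine nucleotide carrier, stood at 13.7, 9.65, 13.3 and 11.9 CPM in WT saline livers, at 27.1, 24.8, 24.3 and 23 in WT insulin livers, at 14.9, 14, 15.4 and 12.1 in ERRα-/- saline livers and at 21, 17.2 and 20.4 in ERRα-/- insulin livers. Its log2 fold change in WT was 1.03 ± 0.14, with an adjusted p of 0.00403 in the quasi-likelihood test of edgeR after Benjamini-Hochberg adjustment. The WT insulin livers stood highest, and the ERRα-/- insulin livers lay between them and the saline livers of both genotypes. Exons of Slc25a33 overlap another gene over 14.9% of their length, which leaves part of its count uncertain.

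Slc25a47 (ENSMUSG00000048856), a carrier found mainly in liver, stood at 739, 599, 643 and 495 CPM in WT saline livers, at 1158, 1409.7, 1446 and 1415 in WT insulin livers, at 962, 960.2, 696 and 1025 in ERRα-/- saline livers and at 1020.2, 836 and 1207 in ERRα-/- insulin livers. In WT its log2 fold change was 1.13 ± 0.15, with an adjusted p of 0.00318 in the quasi-likelihood test of edgeR after Benjamini-Hochberg adjustment. Every WT insulin liver lay above every WT saline liver, while the ERRα-/- livers overlapped between saline and insulin.

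Mitoferrin 1 moved the other way, while mitoferrin 2 was called higher in WT. Slc25a37 (mitoferrin 1, ENSMUSG00000034248), which brings iron into the matrix, stood at 15.4, 19.7, 20.1 and 25.7 CPM in WT saline livers, at 9.75, 9.47, 10.8 and 8.16 in WT insulin livers, at 22, 18.8, 11.2 and 17.4 in ERRα-/- saline livers and at 7.47, 9.63 and 6.67 in ERRα-/- insulin livers. Its log2 fold change in WT was -1.08 ± 0.17, with an adjusted p of 0.00901 in the quasi-likelihood test of edgeR after Benjamini-Hochberg adjustment, and every insulin liver lay below every saline liver of its genotype. Slc25a37 is abundant in red cell precursors, and a list of 5 erythroid genes, none at 0, summed to 169, 449, 263 and 256 CPM in WT saline livers and to 358, 369, 267 and 229.6 in WT insulin livers, with Hbb-bs or Alas2 at the highest CPM. In ERRα-/- livers the list summed to 269, 249, 150.0 and 178 CPM with saline and to 249, 448 and 179 with insulin, so it overlapped between treatments in both genotypes. In whole tissue, fewer cells of a type and less RNA per cell cannot be told apart.

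Slc25a3 (ENSMUSG00000061904) stood at 191, 173, 199 and 202 CPM in WT saline livers, at 257, 318, 244 and 286 in WT insulin livers, at 191, 163, 203 and 199 in ERRα-/- saline livers and at 196, 189.6 and 209 in ERRα-/- insulin livers. It rose in WT at a log2 fold change of 0.53 ± 0.12, with an adjusted p of 0.0422 in the quasi-likelihood test of edgeR after Benjamini-Hochberg adjustment, and the WT insulin livers alone stood above the rest. Slc25a5 stood at 271, 314, 256 and 299.8 CPM in WT saline livers, at 381, 457, 294 and 336 in WT insulin livers, at 279, 262, 221 and 254 in ERRα-/- saline livers and at 299, 270.1 and 281 in ERRα-/- insulin livers. Its WT log2 fold change of 0.36 ± 0.15 had an unadjusted p of 0.0334 and an adjusted p of 0.239 in the quasi-likelihood test of edgeR after Benjamini-Hochberg adjustment, with 1 insulin liver inside the saline range. Slc25a4, low in liver, stood at 1.79, 5.17, 3.24 and 3.61 CPM in WT saline livers, at 4.49, 3.94, 8.37 and 3.79 in WT insulin livers, at 3.54, 3.03, 3.37 and 3.13 in ERRα-/- saline livers and at 4.87, 3.95 and 3.58 in ERRα-/- insulin livers. Its WT log2 fold change of 0.58 had an unadjusted edgeR p of 0.127, and its highest value came from replicate 3, the WT insulin liver with the muscle fibre transcripts, whose part in it was not tested. Without that library the log2 fold change was 0.24. Slc25a31 stood at 0, 0, 0.0228 and 0 CPM in WT saline livers, at 0, 0, 0 and 0.142 in WT insulin livers, at 0.21, 0, 0.131 and 0 in ERRα-/- saline livers and at 0, 0.165 and 0 in ERRα-/- insulin livers, which is too low to compare.

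The remaining carriers past the adjusted threshold in WT were Slc25a34, with a log2 fold change of 1.21, the NAD carrier Slc25a51 at 0.77 and the ATP-Mg/phosphate carrier Slc25a23 at -0.69. Slc25a34, chosen after its values were seen for the match in its promoter, stood at 4.19, 7.06, 6.19 and 6.36 CPM in WT saline livers, at 15.6, 7.35, 17.7 and 14.4 in WT insulin livers, at 11, 7.61, 10.7 and 4.94 in ERRα-/- saline livers and at 13.8, 11.4 and 13.1 in ERRα-/- insulin livers. The exception among the WT insulin livers was replicate 2, just above the saline range. The basic amino acid carrier Slc25a29 at 0.99, the glycine carrier Slc25a38 at 0.47, Slc25a28 at 0.59 and the outer membrane gene Slc25a46 at 0.27 were called by unadjusted p alone. The 4 di- and tricarboxylate carriers ranged from -0.06 to 0.26.

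Leaving out WT insulin replicate 2 gave 13 carriers called in WT, 9 higher and 4 lower, with 7 past the adjusted threshold. Of all genes, 15.6% were called in that fit. Slc25a5, Slc25a28 and Slc25a38 were then no longer called, at log2 fold changes of 0.24, 0.43 and 0.25, while Slc25a35 at -2.02, a gene below 1 CPM in these livers, and Slc25a25 were, the latter at -1.18 with an adjusted p of 0.0176 in the quasi-likelihood test of edgeR after Benjamini-Hochberg adjustment. Slc25a25, an ATP-Mg/phosphate carrier chosen after its values were seen, stood at 217, 195, 186 and 165 CPM in WT saline livers and at 113, 249, 79.2 and 60.3 in WT insulin livers, and the high insulin value is replicate 2. Without WT insulin replicate 3, 13 carriers were called, beside 18.3% of all genes. Without WT saline replicate 3, 9 were called, beside 14.2% of all genes against 17.2% with all samples, and the number past the adjusted threshold fell to 5 when any 1 WT saline liver or WT insulin replicate 1 or 4 was left out.

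Beside these results the summed adipocyte markers, 4 genes of which 1 or 2 were at 0 and Cidec gave nearly the whole sum, went from 32.8, 49.9, 17.7 and 13.3 CPM in WT saline livers to 105, 57.7, 75.1 and 92.5 in WT insulin livers. That is a difference in Cidec, since the other genes stayed near 0 in both groups, and its part was not tested. The summed slow fibre markers, 6 genes of which 1 to 4 were at 0 and Atp2a2 gave nearly the whole sum, stood at 281, 294, 276 and 259 CPM in WT saline livers and at 692, 369, 335 and 382 in WT insulin livers, and their part was not tested. Among companion genes, 6 of 50 tested were called higher and 6 lower, beside 8.34% and 8.91% of all genes. Those called included the malate-aspartate shuttle enzyme gene Got1 at a log2 fold change of 1.59 and the heme synthesis genes Alas1 at -0.99 and Cpox at -0.50. The urea cycle enzymes, among which Slc25a15 works, gave 0 calls of 6 by the same edgeR criterion, beside 17.2% of all genes. A list of 6 genes is too short to tell 0 calls from that share.

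The same treatment was compared in ERRα-/- livers. Mitoferrin 1 fell and the ornithine carrier rose there as well. The folate carrier Slc25a32 rose, and Slc25a45, without an assigned substrate, fell. Of 42 carriers tested, 9 were called higher with insulin (21.4%) and 4 lower (9.52%), beside 8.05% and 9.14% of all genes, so the lower share was near the background. An adjusted p below 0.05 in the quasi-likelihood test of edgeR after Benjamini-Hochberg adjustment was reached by 2 of 42, beside 2.91% of all genes. DESeq2 gave 7. Here and below, adjusted shares of all genes are those of edgeR, and DESeq2 counts have no such share beside them. The median log2 fold change was 0.0959 over the carriers and -0.0217 over all genes.

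Both carriers past the adjusted threshold have been given by sample above. Slc25a37 had a log2 fold change of -1.14 ± 0.23 and an adjusted p of 0.0273, and Slc25a15 had 0.91 ± 0.19 and 0.0312, in the quasi-likelihood test of edgeR after Benjamini-Hochberg adjustment. Slc25a32 (ENSMUSG00000022299), which carries folate, stood at 29.9, 32.2, 32.1 and 31.1 CPM in WT saline livers, at 30.7, 39, 40.8 and 37.9 in WT insulin livers, at 40.8, 28.8, 43.7 and 28.6 in ERRα-/- saline livers and at 51, 67.2 and 55 in ERRα-/- insulin livers. Its log2 fold change in ERRα-/- was 0.70 ± 0.17, with an unadjusted p of 0.002 and an adjusted p of 0.0597 in the quasi-likelihood test of edgeR after Benjamini-Hochberg adjustment. The 3 ERRα-/- insulin livers lay above all 12 others. Slc25a45 (ENSMUSG00000024818) stood at 15.5, 15.3, 10.9 and 11.4 CPM in WT saline livers, at 14, 15.8, 7.96 and 7.14 in WT insulin livers, at 16.5, 15.1, 16.9 and 13.6 in ERRα-/- saline livers and at 10.9, 10.8 and 11.6 in ERRα-/- insulin livers. It fell by 0.49 on the log2 scale in ERRα-/-, with an unadjusted edgeR p of 0.00363, and was not called when all groups of the table were fitted together. The WT groups overlapped widely.

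Slc25a22 at a log2 fold change of 0.56 and Slc25a33 at 0.47 were called higher by unadjusted p, as were Slc25a51 at 0.54, Slc25a34 at 0.57, Slc25a30 at 0.94, Slc25a17 at 0.34 and Slc25a46 at 0.32. Slc25a23 at -0.49 and Slc25a26 at -0.62 were called lower. None of the 3 tested ADP/ATP and phosphate carriers was called in edgeR's test, with Slc25a3 at 0.07, Slc25a5 at 0.15 (unadjusted p 0.213) and Slc25a4 at 0.33 (unadjusted p 0.14). With 3 insulin livers each one weighs heavily, so without ERRα-/- insulin replicate 2 there were 8 carriers called, beside 12.3% of all genes against 17.2%, and none passed the adjusted threshold without ERRα-/- saline replicate 4 or without ERRα-/- insulin replicate 1, 2 or 4. The summed brown adipocyte markers, 3 genes of which 0 to 2 were at 0 and Elovl3 gave nearly the whole sum, stood at 124, 240.1, 41.3 and 83 CPM in ERRα-/- saline livers and at 275, 243 and 244 in ERRα-/- insulin livers, and their part was not tested. Companion genes gave 7 higher and 5 lower of 51, beside 8.05% and 9.14% of all genes, so the lower share was near the background. Those called included Got1 at a log2 fold change of 1.67, Alas1 at -0.91 and the mitochondrial sodium/calcium exchanger gene Slc8b1 at 0.69. Of the 6 urea cycle enzymes, 1 was called higher, Cps1 at 0.74 with an unadjusted edgeR p of 0.0134.

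**Figure D3:**
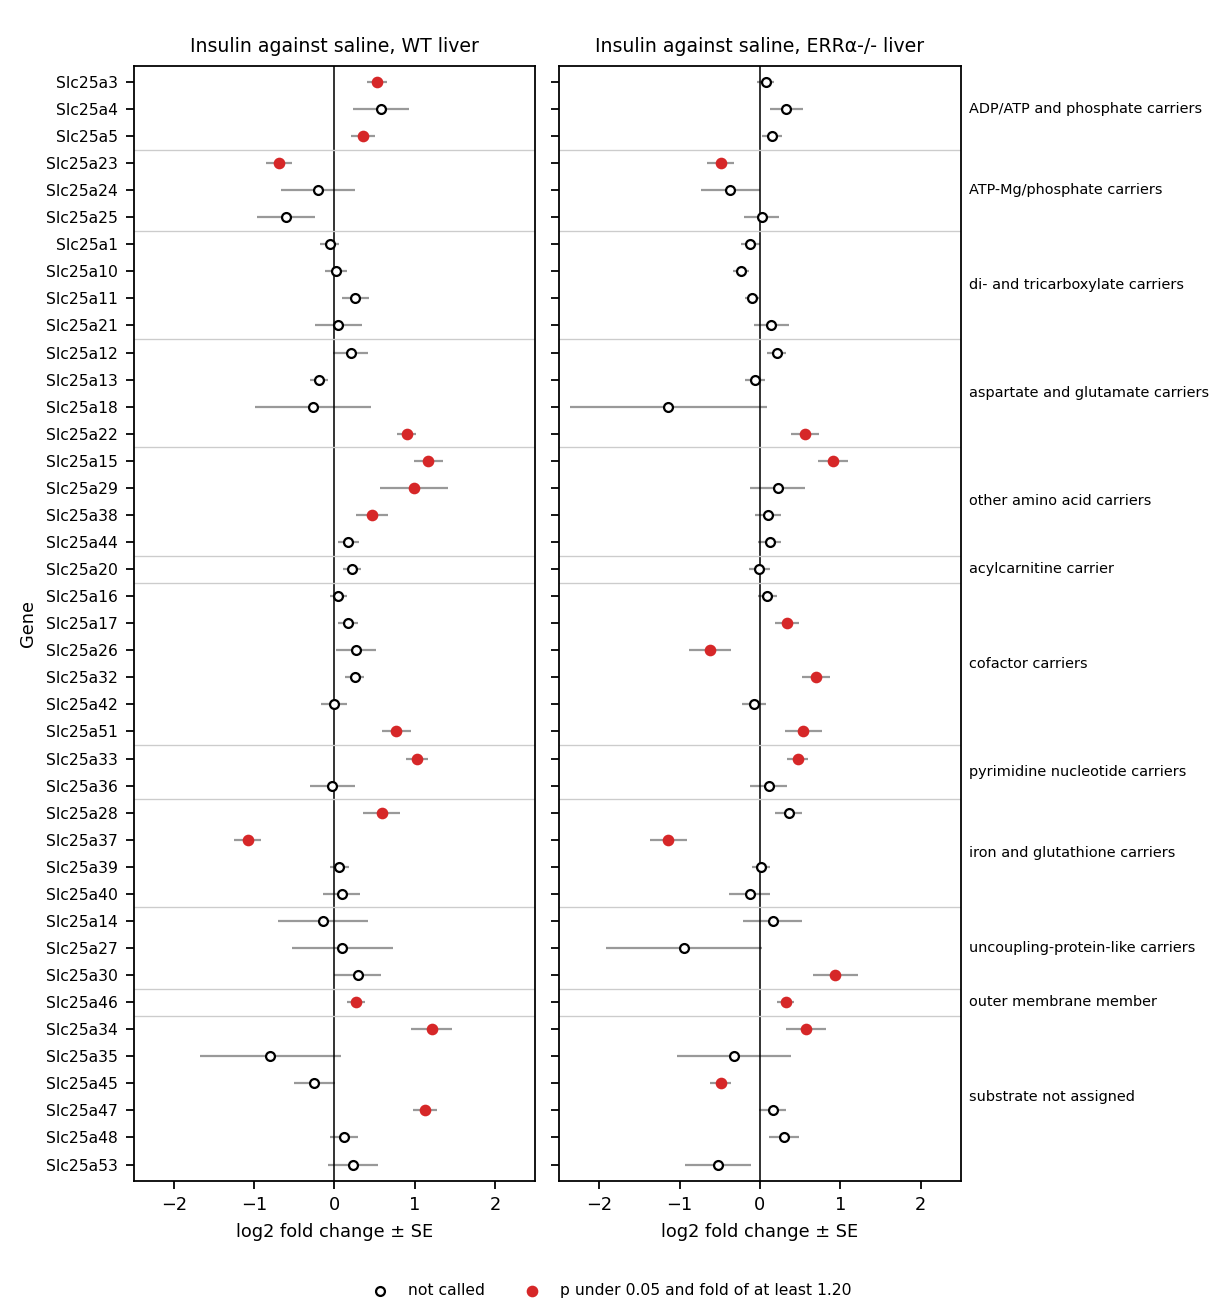
Log2 fold change with SE of tested carriers, insulin against saline, in WT livers (left) and ERRα-/- livers (right), grouped by substrate, with filled red points for carriers called. Slc25a37 lies at -1.08 and -1.14, and Slc25a47 at 1.13 and 0.16.

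Whether the effect of insulin differed between the genotypes was tested directly, as the WT log2 fold change minus that in ERRα-/- livers. By unadjusted p, Slc25a47, the pyrimidine nucleotide carrier Slc25a33 and the phosphate carrier rose more in WT, and the folate carrier had the larger increase in ERRα-/-. The S-adenosylmethionine carrier was called lower with insulin in ERRα-/- alone. None passed the adjusted threshold. Of 43 carriers tested, 4 were called higher (9.3%) and 1 lower (2.33%), beside 4.75% and 4.04% of all genes. No carrier had an adjusted p below 0.05 in the quasi-likelihood test of edgeR after Benjamini-Hochberg adjustment, beside 0% of all genes, while 5 had an unadjusted p under 0.05 and DESeq2 gave 1 adjusted call. The median difference was 0.154 on the log2 scale over the carriers and 0.0198 over all genes.

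The difference for Slc25a47 was 0.97 ± 0.23 on the log2 scale, with an unadjusted p of 0.000585 and an adjusted p of 0.422 in the quasi-likelihood test of edgeR after Benjamini-Hochberg adjustment. Slc25a33 differed by 0.56 ± 0.19 with an unadjusted edgeR p of 0.00998, and Slc25a3 by 0.46 ± 0.16 with an unadjusted edgeR p of 0.0105. Slc25a26 (ENSMUSG00000045100), which brings the methyl donor S-adenosylmethionine into mitochondria, stood at 5.9, 4.01, 4.18 and 5.8 CPM in WT saline livers, at 3.77, 7.01, 5.86 and 7.35 in WT insulin livers, at 5.2, 4.68, 5.83 and 6.67 in ERRα-/- saline livers and at 5.02, 2.44 and 3.45 in ERRα-/- insulin livers. The groups overlapped in both genotypes, apart from 2 low ERRα-/- insulin livers. Its difference was 0.89 ± 0.37, with an unadjusted edgeR p of 0.027, and it was not called when ERRα-/- saline replicate 4, ERRα-/- insulin replicate 2 or 4, WT saline replicate 2 or 3 or WT insulin replicate 4 was left out, at values from 0.67 to 0.85. Slc25a32 differed by -0.46 ± 0.21, with an unadjusted edgeR p of 0.0474. It was not called by DESeq2, nor when any WT saline liver, WT insulin replicate 1 or 4, ERRα-/- saline replicate 2 or 4 or ERRα-/- insulin replicate 2 or 4 was left out. Slc25a15 and Slc25a37, which changed in both genotypes, were not called for a difference.

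Without WT insulin replicate 2 there were 7 carriers called in this test, and without replicate 3 there were 5, beside 8.35% and 10.8% of all genes. With all samples 8.79% of all genes were called. Only 3 carriers were called without ERRα-/- insulin replicate 2, ERRα-/- insulin replicate 4 or WT saline replicate 3, beside 5.82%, 7.73% and 8.62% of all genes.

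**Figure D4:**
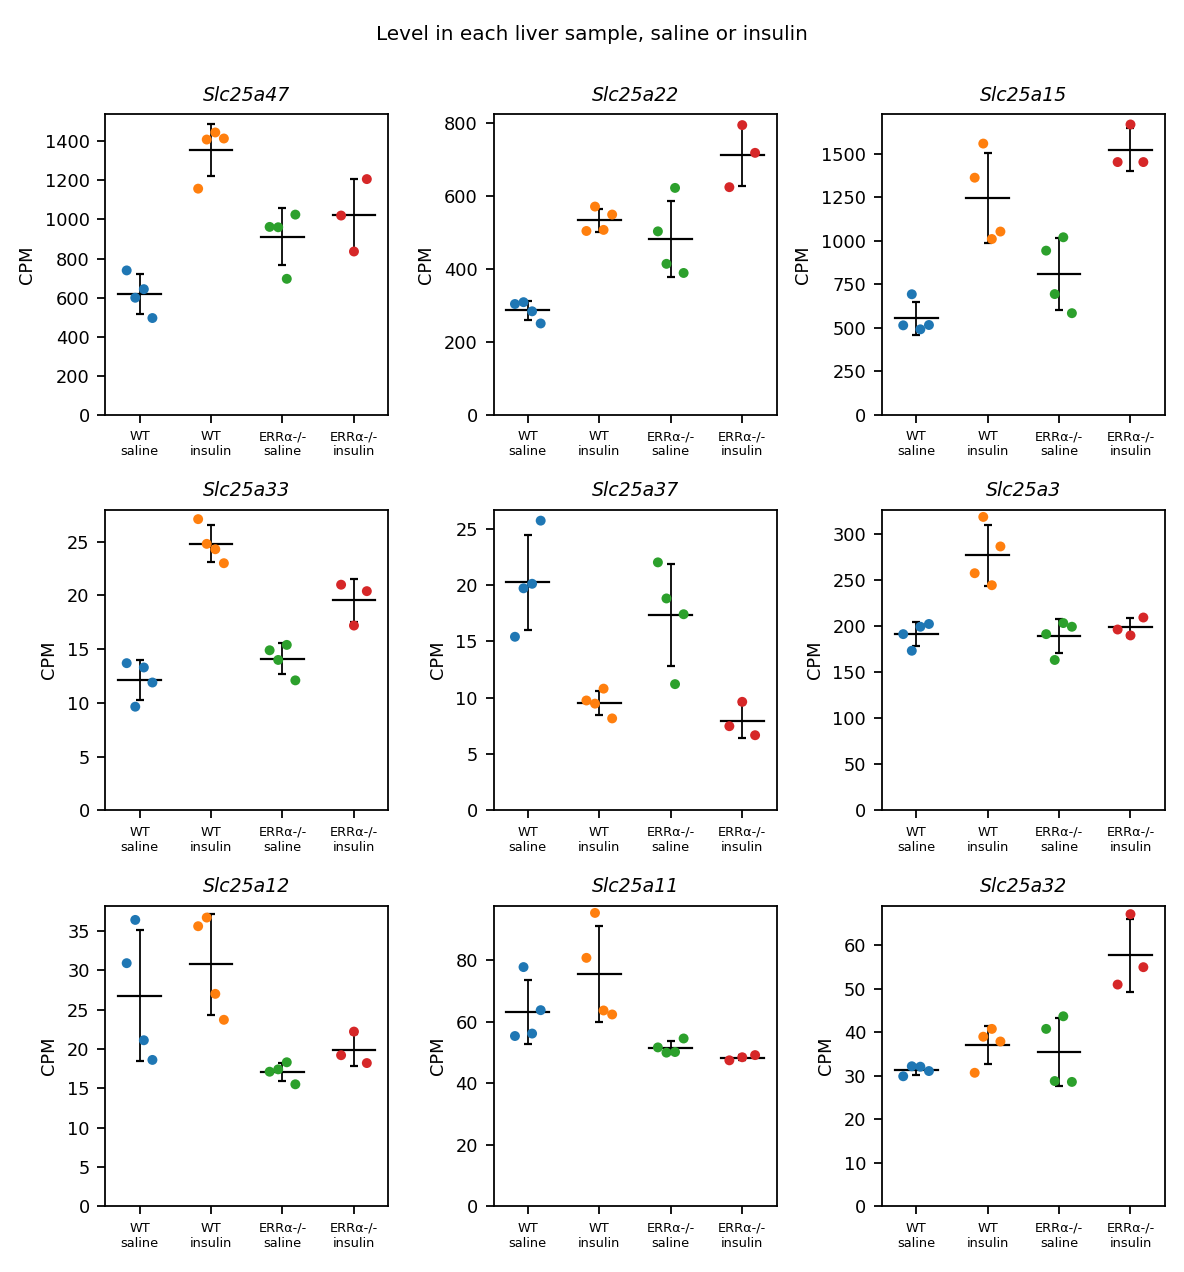
CPM of 9 carriers in each liver of the insulin experiment, with points for samples, horizontal bars for group means and error bars for SD, in WT saline, WT insulin, ERRα-/- saline and ERRα-/- insulin livers. The 4 WT insulin livers lie between 1158 and 1446 for Slc25a47, above the other groups except 1 ERRα-/- insulin liver at 1207.

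The genotypes were then compared within each treatment, to see what loss of ERRα alone does. After saline, ERRα-/- livers held more of the glutamate carrier Slc25a22, the ornithine carrier Slc25a15 and Slc25a47. They held less of the aspartate/glutamate carrier aralar and of the oxoglutarate carrier, which work together in the malate-aspartate shuttle. Citrin (Slc25a13), which does the same work as aralar, was not called, at means of 365 CPM in WT and 328 in ERRα-/- saline livers. In WT saline livers citrin stood at 117 CPM per kb and aralar at 4.21. Each genotype comparison shares its samples with the insulin comparisons above.

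Of 42 carriers tested after saline, 5 were called higher in ERRα-/- (11.9%) and 4 lower (9.52%), beside 5.98% and 5.3% of all genes. No carrier passed an adjusted p of 0.05 in the quasi-likelihood test of edgeR after Benjamini-Hochberg adjustment, beside 0.0816% of all genes, while 9 had an unadjusted p under 0.05 and DESeq2 gave 2 adjusted calls. On the log2 scale the median fold change was -0.0039 over the carriers and 0.00365 over all genes.

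Slc25a22 was higher in ERRα-/- saline livers at a log2 fold change of 0.75 ± 0.15, with an unadjusted edgeR p of 0.000456, and all 4 lay above all 4 WT saline livers. Slc25a47 was higher at 0.56 ± 0.16 (unadjusted edgeR p 0.00439) and Slc25a15 at 0.55 ± 0.19 (unadjusted edgeR p 0.0128), both with groups that overlapped. Aralar, Slc25a12, stood at 30.9, 36.4, 21.1 and 18.6 CPM in WT saline livers, at 35.6, 36.7, 27 and 23.7 in WT insulin livers, at 17.1, 17.4, 18.3 and 15.5 in ERRα-/- saline livers and at 19.2, 22.2 and 18.2 in ERRα-/- insulin livers. It was lower in ERRα-/- at a log2 fold change of -0.65 ± 0.19, with an unadjusted edgeR p of 0.00634. The WT livers spread over a range of their own, and its low end lay just above the ERRα-/- livers of the same treatment. Also called were Slc25a10 at 0.31, Slc25a25 at 0.31, Slc25a11 at -0.29, Slc25a23 at -0.40 and Slc25a46 at -0.31, while Slc25a5 at -0.17 and Slc25a4 at -0.08 were not.

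After insulin, ERRα-/- livers held less of the phosphate carrier, the ADP/ATP carrier Slc25a5, the oxoglutarate carrier and aralar than WT insulin livers, and more of the folate carrier and of Slc25a22. Citrin was again not called, at means of 319 CPM in WT and 316 in ERRα-/- insulin livers. Of 42 carriers tested, 2 were called higher (4.76%) and 8 lower (19%), beside 4.57% and 5.42% of all genes, so the higher share was near the background. No carrier passed an adjusted p of 0.05 in the quasi-likelihood test of edgeR after Benjamini-Hochberg adjustment, beside 0.0585% of all genes, while 10 had an unadjusted p under 0.05 and DESeq2 gave 3 adjusted calls. The median log2 fold change was -0.137 over the carriers and -0.0209 over all genes.

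The oxoglutarate carrier Slc25a11 (ENSMUSG00000014606) stood at 55.3, 77.7, 56.1 and 63.7 CPM in WT saline livers, at 80.7, 95.3, 63.6 and 62.3 in WT insulin livers, at 51.6, 49.9, 50.1 and 54.5 in ERRα-/- saline livers and at 47.4, 48.4 and 49.1 in ERRα-/- insulin livers. The log2 fold change after insulin was -0.65 ± 0.17, with an unadjusted edgeR p of 0.00263. All ERRα-/- livers lay below all WT livers of either treatment, although exons of Slc25a11 overlap another gene over 8.92% of their length. Slc25a12 had -0.64 ± 0.18 (unadjusted edgeR p 0.00497), Slc25a3 had -0.49 ± 0.14 (unadjusted edgeR p 0.0049) and Slc25a32 had 0.63 ± 0.15 (unadjusted edgeR p 0.00141), and none of the 3 genes had groups that overlapped. Of the other carriers called, Slc25a22 was higher at 0.41, and Slc25a5 at -0.39, Slc25a33 at -0.35, Slc25a47 at -0.42, Slc25a46 at -0.28 and Slc25a26 at -0.73 were lower. Slc25a4 had -0.33 with an unadjusted edgeR p of 0.319.

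Without WT insulin replicate 2, 10 carriers were called after insulin, 4 higher and 6 lower, with Slc25a25 added as higher in ERRα-/- with an unadjusted edgeR p of 0.000836, and Slc25a5 no longer called at -0.26. Without WT insulin replicate 3, 10 were called, without ERRα-/- insulin replicate 2 there were 4 and without ERRα-/- insulin replicate 4 there were 6. Of all genes, 9.99% were called with all samples, 13.2% without WT insulin replicate 2 and 10.8% without WT insulin replicate 3. Without ERRα-/- insulin replicate 2 or 4 the share fell to 5.78% and 7.08%.

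Markers also stood apart between these insulin groups. The 6 hepatocyte genes, none at 0 and Alb with the highest CPM, summed to 88019.7, 96053, 84911 and 93425 CPM in WT insulin livers and to 112683, 113013 and 105519 in ERRα-/- insulin livers. The 3 T or B cell genes, of which 0 or 1 were at 0 and Ptprc had the highest CPM, summed to 5.58, 5.98, 5.35 and 5.31 CPM in WT and to 6.24, 7.35 and 8.19 in ERRα-/-. Their part in the carrier results was not tested.

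Companion genes gave 2 higher and 6 lower of 50 after saline, beside 5.98% and 5.3% of all genes. After insulin they gave 2 higher and 9 lower of 51, beside 4.57% and 5.42%. The higher shares were thus near the background. The malate dehydrogenase gene Mdh1, of the same shuttle as Slc25a11 and Slc25a12, had a log2 fold change of -0.47 after saline and -0.68 after insulin, and Mdh2 had -0.44 after insulin, while Got1 of that shuttle was called higher after insulin at 0.41. The channel genes Vdac1 and Vdac2 of the outer membrane had -0.34 and -0.37 after saline and -0.32 and -0.47 after insulin. The urea cycle gene Cps1 was higher after insulin, at 0.95 with an adjusted p of 0.0739 in the quasi-likelihood test of edgeR after Benjamini-Hochberg adjustment.

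ERRα3SA livers were compared with livers of WT littermates, to see what the loss of the phosphorylated serines does without a treatment. No carrier was called in either direction. Of 40 carriers tested, 0 were called higher and 0 lower, beside 2.5% and 2.38% of all genes, and none passed an adjusted p of 0.05 in the quasi-likelihood test of edgeR after Benjamini-Hochberg adjustment, beside 0% of all genes. An unadjusted p under 0.05 was reached by 2 carriers and DESeq2 called 0. They were Slc25a37, at a log2 fold change of -0.22 (unadjusted edgeR p 0.0171), and Slc25a51 at -0.23 (unadjusted edgeR p 0.0254), both under that fold. On the log2 scale the median fold change was -0.0298 over the carriers and -0.000386 over all genes.

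Mitoferrin 1, Slc25a37, stood at 38.1, 37.2, 36.8 and 38.2 CPM in WT littermate livers and at 35.7, 31.6, 33.6 and 27.9 in ERRα3SA livers, without overlap. Slc25a5 stood at 423, 396, 400.2 and 387 CPM in WT littermates and at 411, 427, 463 and 282 in ERRα3SA, and Slc25a4 at 5.93, 5.07, 4.41 and 5.8 against 3.62, 4.53, 5.83 and 3.7. Both ADP/ATP carriers overlapped between genotypes, with log2 fold changes of -0.02 and -0.26. The lowest Slc25a5 value came from replicate 4, the ERRα3SA liver with low hepatocyte markers, which was also the lowest ERRα3SA liver for Slc25a1 at 198 CPM, Slc25a15 at 346, Slc25a20 at 65.7, Slc25a22 at 106 and Slc25a47 at 169. The other ERRα3SA livers held 446, 494 and 494 CPM of Slc25a47, all above the WT littermates at 352, 373, 234 and 346. Without replicate 4, 2 carriers were called, Slc25a47 at a log2 fold change of 0.55 (unadjusted edgeR p 0.00248) and Slc25a20 at 0.27 (unadjusted edgeR p 0.0387), beside 6.6% of all genes called. There were 4 calls without ERRα3SA replicate 1, 3 without ERRα3SA replicate 3 and 1 without WT littermate replicate 4, beside 5.78%, 5.3% and 3.75% of all genes. Companion genes gave 0 higher and 2 lower of 51, Got1 at -0.68 and Abcb6 at -0.64, beside 2.5% and 2.38% of all genes.

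The same genotypes were compared in muscle, where ERRα3SA samples held more of the ADP/ATP carrier Slc25a4, of the acylcarnitine carrier and of mitoferrin 2. The citrate carrier was lower. None of these passed the adjusted threshold with all samples. Of 39 carriers tested, 4 were called higher in ERRα3SA (10.3%) and 1 lower (2.56%), beside 2.78% and 1.75% of all genes. No carrier had an adjusted p below 0.05 in the quasi-likelihood test of edgeR after Benjamini-Hochberg adjustment, beside 0% of all genes, while 5 had an unadjusted p under 0.05 and DESeq2 gave 0 adjusted calls. The median log2 fold change was 0.0549 over the carriers and 0.0226 over all genes.

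Slc25a4 stood at 2778, 3005, 2651 and 2730.5 CPM in WT littermate muscles and at 3196, 3978, 3964 and 3197 in ERRα3SA muscles. The change on the log2 scale was 0.39 ± 0.13, with an unadjusted p of 0.0155 and an adjusted p of 1 in the quasi-likelihood test of edgeR after Benjamini-Hochberg adjustment. All 4 ERRα3SA muscles lay above all 4 WT littermates, in an upper pair and a lower pair. Slc25a4 was not called with the replicate number as a block, while its log2 fold change ranged from 0.34 to 0.45 over all fits. Slc25a5 stood at 26.3, 28.8, 23.6 and 22.1 CPM in WT littermates and at 25.3, 31.1, 29.4 and 44.4 in ERRα3SA muscles. The log2 fold change of 0.40 had an unadjusted edgeR p of 0.056, and replicate 1 lay within the WT range. The highest Slc25a5 value came from replicate 4, the library with the high macrophage, erythroid and T or B cell sums, whose part was not tested. Without that library the log2 fold change was 0.21 with an unadjusted edgeR p of 0.158. Slc25a31 stood at 0, 0, 0 and 0 CPM in WT littermates and at 0, 0.132, 0 and 0 in ERRα3SA muscles.

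Slc25a20 (ENSMUSG00000032602), which exchanges acylcarnitine for carnitine in fatty acid oxidation, stood at 70.9, 70.9, 58.3 and 67 CPM in WT littermates and at 77.4, 93.9, 91.3 and 70.8 in ERRα3SA muscles. The change on the log2 scale was 0.35 ± 0.12, with an unadjusted edgeR p of 0.0192. Of the ERRα3SA muscles, 3 lay above the WT littermates and replicate 4 did not, and the call was lost without WT littermate replicate 3 or ERRα3SA replicate 2 or 3, at 0.29, 0.29 and 0.31, and also with all groups in 1 fit, at 0.32, or with the replicate number as a block, at 0.34. Slc25a28 (mitoferrin 2, ENSMUSG00000040414) stood at 20.2, 17.3, 17.1 and 17.1 CPM in WT littermates and at 23.8, 26.8, 25.6 and 18.2 in ERRα3SA muscles. The log2 fold change was 0.42 ± 0.14, with an unadjusted edgeR p of 0.0135, and again replicate 4 alone overlapped. Slc25a1 (ENSMUSG00000003528), which exports citrate for lipid synthesis, stood at 8.33, 6.4, 8.79 and 7.1 CPM in WT littermates and at 4.16, 4.79, 6.4 and 5.43 in ERRα3SA muscles. The change on the log2 scale of -0.53 ± 0.18 had an unadjusted edgeR p of 0.0165, with 1 ERRα3SA muscle at the lowest WT value, and without WT littermate replicate 3 it was -0.45 and not called. The other carrier called was Slc25a34, at 3.6, 20.1, 12.1 and 16.4 CPM in ERRα3SA against 7.34, 8.69, 4.93 and 6.3 in WT littermates, where replicate 1 lay below and the rest above. Without ERRα3SA replicate 4 there were 4 carriers called, beside 4.73% of all genes, and Slc25a34 was not among them, at 0.84.

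**Figure D5:**
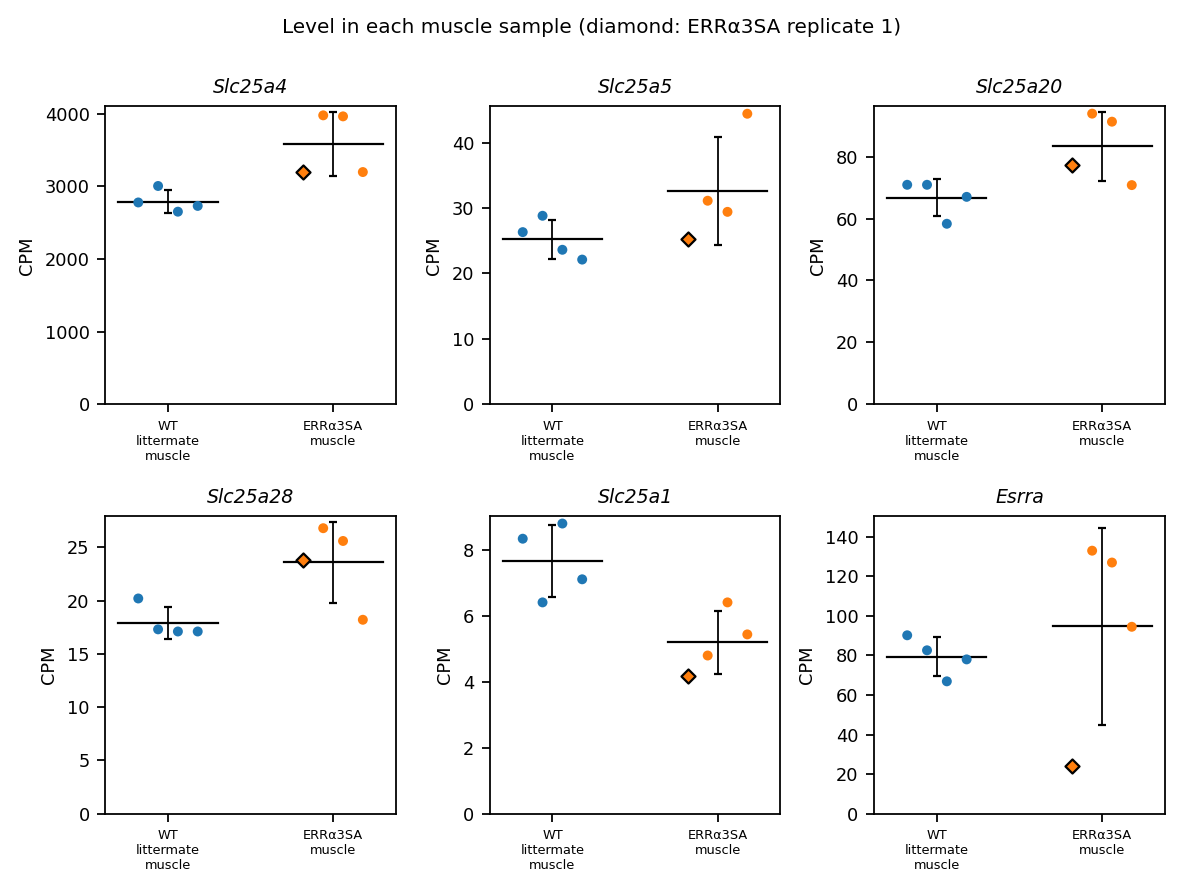
CPM of 5 carriers and of Esrra in each muscle of WT littermates and ERRα3SA mice, with points for samples, bars for group means and error bars for SD, and a diamond for ERRα3SA replicate 1. For Slc25a4 the ERRα3SA muscles lie between 3196 and 3978 and the WT littermates between 2651 and 3005.

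Leaving out ERRα3SA muscle replicate 1, which stood apart in Esrra, mitochondrial share and fibre markers, gave 8 of 39 carriers called, 7 higher and 1 lower. Beside them 17.4% of all genes were called, against 4.54% with all samples, so the share of carriers called was near the background. Slc25a4 then had a log2 fold change of 0.45 with an adjusted p of 0.0374, Slc25a34 had 1.29 with 0.02 and Slc25a39 had 0.34 with 0.0408, in the quasi-likelihood test of edgeR after Benjamini-Hochberg adjustment. The share of all genes past the adjusted threshold in that fit is not given here. Slc25a5 at 0.52 and Slc25a29 at 0.60 were added, and Slc25a20 at 0.39, Slc25a28 at 0.42 and Slc25a1 at -0.43 were called with and without it. Over the fast fibre genes, none at 0 and Myh4 with the highest CPM, WT littermate muscles summed to 66012, 64913, 71132 and 75483 CPM and ERRα3SA muscles to 137273, 65228, 67458 and 46799, and their part in these results was not tested. Without ERRα3SA replicate 2 there were 3 carriers called, and without WT littermate replicate 3 there were 2, beside 4.73% and 2.64% of all genes. Companion genes gave 3 higher and 2 lower of 51, beside 2.78% and 1.75% of all genes. Called higher were Got1 at 0.29, the urea cycle gene Ass1 at 0.66 and the heme synthesis gene Cpox at 0.33. The lipid synthesis genes Acly at -0.40 and Fasn at -0.79 were called lower, 2 of 6 genes tested for citrate export and use.

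Finally, the ERRα3SA effect in muscle was tested against that in liver. Slc25a4 and both mitoferrins had a higher effect in muscle by unadjusted p, and Slc25a35 a lower one. Of 41 carriers tested, 3 were called higher (7.32%) and 1 lower (2.44%), beside 3.16% and 2.41% of all genes, so the lower share was near the background. None had an adjusted p below 0.05 in the quasi-likelihood test of edgeR after Benjamini-Hochberg adjustment, beside 0% of all genes, while 4 had an unadjusted p under 0.05 and DESeq2 gave 0 adjusted calls. The median difference was 0.0554 over the carriers and 0.00348 over all genes.

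Slc25a4 differed by 0.63 ± 0.24 on the log2 scale with an unadjusted edgeR p of 0.0184, and its per-sample values in both tissues are given above. Slc25a28 stood at 15.1, 15.8, 15.4 and 15.7 CPM in WT littermate livers and at 16.5, 14.8, 14.5 and 10.9 in ERRα3SA livers, and differed by 0.52 ± 0.19 (unadjusted edgeR p 0.0153). Slc25a37 stood at 22.4, 25.2, 24.2 and 24.7 CPM in WT littermate muscles and at 26.6, 27.3, 25.1 and 24.7 in ERRα3SA muscles, and differed by 0.33 ± 0.12 (unadjusted edgeR p 0.0184). In muscle both mitoferrins overlapped between genotypes, and in liver Slc25a28 overlapped and Slc25a37 lay below the WT littermates. Slc25a35 (ENSMUSG00000018740) stood at 1.44, 1.98, 1.67 and 1.52 CPM in WT littermate livers, at 1.83, 2.36, 1.62 and 4.38 in ERRα3SA livers, at 5.66, 4.62, 5.76 and 4.7 in WT littermate muscles and at 3.88, 4.42, 5.5 and 4.31 in ERRα3SA muscles. Its difference of -0.82 ± 0.36 (unadjusted edgeR p 0.0386) was -0.40 and not called without ERRα3SA liver replicate 4. The call was also lost with the replicate number as a block and without WT littermate liver replicate 1, 3 or 4. Leaving out WT littermate muscle replicate 1 or 3 or ERRα3SA muscle replicate 1, 2 or 4 lost it too. Exons of Slc25a35 overlap Rangrf over 31.3% of their length, so its values are uncertain.

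Without ERRα3SA muscle replicate 1 this test called 9 of 41 carriers, 8 higher and 1 lower, beside 17.3% of all genes. Slc25a4 was then at 0.67, Slc25a28 at 0.51 and Slc25a37 at 0.31. Without ERRα3SA muscle replicate 4 it called 3, with Slc25a4 at 0.69, beside 5.91% of all genes. Without ERRα3SA liver replicate 4 it called 4, with Slc25a1 at -0.50 in place of Slc25a35, beside 5.5% of all genes. With all samples that share was 5.57%.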

How the data were processed

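Bulk RNA sequencing was measured in 31 libraries. The authors deposited tables of raw read counts per gene, which per the submitters' processing notes were made with STAR on mm10, and the strand setting of the counting is not given in the sources used here. The ERRα3SA muscle columns use another short genotype code than the sample titles and were matched by tissue, genotype and number. Genes were matched by Ensembl identifier to GENCODE vM21. Each comparison was fitted on its own groups, over all genes that passed filterByExpr, with edgeR 4.0.16 (TMM, glmQLFit and glmQLFTest) in R 4.3.3, and p-values were adjusted by Benjamini and Hochberg over those genes. Length was that of the longest principal protein-coding transcript.

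Members and lists were chosen with earlier results of these data known. Values by sample were given for Slc25a4, Slc25a5 and Slc25a31, for the up to 4 called carriers with the lowest p in each comparison and, between tissues, for the 3 called carriers with the largest fold in each direction with a mean of at least 10 CPM, 22 carriers in all. Alternatives were DESeq2 1.42.0, its size factors, no filter, all groups in 1 fit, the replicate number as a block and each sample left out. The scripts were tested on simulated data. Fold bounds used a floor of 3 counts per library and cover counting error only. The values of 1 carrier, which is part of all counts and medians, are not reported here and are left out of the plots.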

Additional observations from a re-analysis of the deposited data

Results flagged for a closer look

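Of 147 groups of 4 samples looked at, 9 held a sample far from the others of its group, measured as its gap to the nearest sample over the range of the group. Chance alone gives about 1 in 20 groups. In WT insulin livers these were Slc25a4 at 8.37 CPM, Slc25a47 at 1158 CPM and Esrra at 96.4 CPM. In ERRα3SA livers they were Slc25a47 at 169 CPM, Slc25a33 at 11.8 CPM and Slc25a26 at 5.24 CPM. The others were Slc25a15 at 693 CPM in WT saline liver, Slc25a32 at 33.7 CPM in ERRα3SA muscle and Slc25a28 at 20.2 CPM in WT littermate muscle.

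A difference between groups in the effect itself was found by an unadjusted p under 0.05 in edgeR's quasi-likelihood test, with none past the adjusted threshold. The effect of insulin in WT livers minus that in ERRα-/- livers was 0.97 for Slc25a47, 0.56 for Slc25a33, 0.46 for Slc25a3, 0.89 for Slc25a26 and -0.46 for Slc25a32 on the log2 scale. The effect of ERRα3SA in muscle minus that in liver was 0.52 for Slc25a28, 0.33 for Slc25a37, 0.63 for Slc25a4 and -0.82 for Slc25a35.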

How the results depend on the processing

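With 1 sample left out at a time, the number of carriers called ranged from 9 to 13 for insulin in WT livers (14 with all samples), from 8 to 12 for insulin in ERRα-/- livers (13), from 7 to 12 for ERRα-/- against WT after saline (9), from 4 to 11 after insulin (10), from 3 to 7 for the difference of the insulin effects (5), from 0 to 4 for ERRα3SA liver (0), from 2 to 8 for ERRα3SA muscle (5), from 3 to 9 for muscle minus liver (4) and from 29 to 30 for muscle against liver (30). In the same order, the share of all genes called ranged from 13.1% to 18.3%, 12.3% to 18.5%, 9.31% to 14.4% and 5.78% to 13.2%. It then ranged from 5.82% to 10.8%, 3.75% to 6.6%, 2.64% to 17.4%, 4.44% to 17.3% and 58.3% to 58.7%.

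For ERRα3SA liver, 2 carriers were called with no filter on low counts and 1 with all groups in 1 fit, against 0, and the cause was not tested. Of all genes, 4.29% and 3.35% were called in these fits, against 4.88%. With the replicate block, the counts in the same order were 12, 13, 9, 10, 5, 0, 2, 3 and 30, and the 2 for ERRα3SA muscle stands against 5. The shares of all genes beside them were 17.4%, 17.6%, 11%, 9.72%, 8.49%, 4.92%, 2.37%, 4.79% and 58.1%. The share of all genes called in ERRα3SA muscle fell too, from 4.54% to 2.37%. Samples with the same number did not deviate together in every pair, with correlations of -0.0417, 0.0608, 0.223 and 0.17 for insulin in WT livers. Between liver and muscle they were 0.0219, 0.0257, 0.041 and 0.0198 in WT littermates and -0.088, 0.051, 0.0311 and 0.0845 in ERRα3SA. The numbers were thus not taken to pair the samples. The labels do not say whether liver and muscle came from the same mice, and the tests treated them as independent. All other alternatives stayed within 1.5 times the count.

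The folds that the rule on values by sample named, each in the comparison that named it, were fitted again under every alternative, and none reversed. With 1 sample left out, 305 of these fits kept their side of the threshold and 19 did not, and under the other alternatives 157 did and 5 did not, among them Slc25a4 at 0.38 and Slc25a20 at 0.34 in ERRα3SA muscle under the block. Groups of 3 or 4 samples limit what small differences can reach, and carriers that did not pass filterByExpr were not compared.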
